A study of Mus musculus with 12 samples.

Results

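The genes described here are surface and cytokine receptors of leukocytes, taken from RNA sequencing of mouse colon in dextran sulfate sodium (DSS) colitis. A gene was included when its mouse symbol starts with Clec, Cd and a digit, Fcgr, Fcer, Siglec, Lilr, Pir, Ms4a, Trem, Itg, Selp, Sele, Ccr, Cxcr or Tnfrsf, or with Il, digits and r. A further 12 genes with such symbols, among them Cd4, Cd68, Ccr2 and Cxcr2, were set aside by name. The rule found 56 genes among the 912 features listed for Control and DSS libraries, of 991 features listed in any library. Of the 56, 1 gene does not belong by function: Selenbp1, a selenium-binding protein of the gut epithelium whose symbol happens to begin with Sele. It is kept in every count over 56 genes and described apart, and the other 55 are called the receptor genes below. Itgbl1 and Tnfrsf11b encode secreted proteins and are kept under the families their symbols name.

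The study has 4 groups of 3 libraries. Control mice received ddH2O. DSS mice went through 3 cycles, each of 5 days on 2.5% DSS and 5 days on plain water. The BXD_L and BXD_H groups took that course with the herbal preparation BXD (Banxia Xiexin Decoction) at 7.60 and 15.2 g/kg/day, and their libraries list 8 and 95 features, none of them among the 56 genes. All results below therefore compare DSS with Control. The labels give no strain, sex or age, and do not say whether libraries come from separate mice. The p-values rest on the spread among libraries, part or all of which may be technical. The description of Control replicate 3 speaks of DSS and that of DSS replicate 3 of the lower BXD dose, against their titles and treatment labels. Groups follow the titles, and results without those libraries are given.

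Leukocytes read their surroundings through these families. C-type lectins bind sugars of microbes and of other cells, Fc receptors bind antibodies, and paired receptors exist in activating forms, which signal through tyrosine motifs called ITAMs, and inhibitory forms, which carry ITIMs and recruit phosphatases. Integrins and selectins attach leukocytes to vessel walls and matrix, chemokine receptors steer them, and TNF and interleukin receptors pass on cytokine signals. In the inflamed colon, monocytes, neutrophils and T cells enter from blood, and resident epithelium, endothelium and fibroblasts express some of these receptors as well. In bulk tissue, more cells of a type and more RNA per cell cannot be told apart.

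The RefSeq promoter table (GRCm38.p6, the genome of mm10, 250 bases before to 50 after each start) held 44 of the 56 genes. The sequence GAGGAAGT, a form of the purine-rich box bound by PU.1 (a transcription factor of myeloid and B cells) and by other ETS factors, was searched on both strands. It occurred in 5 of the 44 genes (11.4%), and in 3.69% of all 27025 genes in the table. The shorter core GGAAGT, which lies within it, occurred in 16 of 44 genes (36.4%) and in 26.5% of all genes. A match is a string of letters in this window and was not tested for binding. The 5 promoters with the longer form are shown because they belong to 3 myeloid receptors of opposite signalling sign and to 2 receptors of T cells. They run 5′ to 3′ on the strand of the gene, with the match in capitals.
Fcgr4: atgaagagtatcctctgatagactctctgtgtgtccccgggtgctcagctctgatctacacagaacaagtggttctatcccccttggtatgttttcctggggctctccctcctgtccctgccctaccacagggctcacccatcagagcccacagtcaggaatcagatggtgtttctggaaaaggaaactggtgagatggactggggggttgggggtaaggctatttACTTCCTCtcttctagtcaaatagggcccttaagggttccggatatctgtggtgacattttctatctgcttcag
Pirb: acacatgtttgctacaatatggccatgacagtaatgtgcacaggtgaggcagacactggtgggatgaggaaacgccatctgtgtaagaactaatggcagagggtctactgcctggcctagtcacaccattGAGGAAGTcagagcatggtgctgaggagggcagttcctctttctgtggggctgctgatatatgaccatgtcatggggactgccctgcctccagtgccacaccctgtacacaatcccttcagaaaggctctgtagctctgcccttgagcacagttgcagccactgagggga
Cd300lf: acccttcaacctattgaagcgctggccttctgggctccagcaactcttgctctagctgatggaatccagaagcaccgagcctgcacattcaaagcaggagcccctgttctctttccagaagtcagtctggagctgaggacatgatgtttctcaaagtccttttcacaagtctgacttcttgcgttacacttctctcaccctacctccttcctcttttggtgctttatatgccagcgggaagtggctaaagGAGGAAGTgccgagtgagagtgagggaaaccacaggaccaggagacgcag
Cd5: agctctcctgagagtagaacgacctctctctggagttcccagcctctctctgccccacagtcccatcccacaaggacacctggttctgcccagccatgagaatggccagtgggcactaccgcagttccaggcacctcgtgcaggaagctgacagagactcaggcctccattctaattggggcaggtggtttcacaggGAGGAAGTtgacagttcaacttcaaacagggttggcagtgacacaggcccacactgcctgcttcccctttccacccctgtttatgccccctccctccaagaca
Il18rap: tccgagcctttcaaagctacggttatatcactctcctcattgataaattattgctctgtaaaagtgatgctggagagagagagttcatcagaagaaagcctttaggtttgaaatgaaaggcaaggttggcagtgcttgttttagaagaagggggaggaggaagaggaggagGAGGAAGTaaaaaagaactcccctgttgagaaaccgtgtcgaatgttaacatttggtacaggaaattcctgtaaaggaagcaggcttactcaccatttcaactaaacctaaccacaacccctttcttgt
The match lies 24 bases before the start in Fcgr4 (chr1:171018676-171018975, plus strand), where the capitals are the reverse complement, and 120 bases before it in Pirb (chr7:3720333-3720632, minus strand). In Cd300lf (chr11:115133943-115134242, minus strand) it begins at base 1 after the start. It lies 53 bases before the start in Cd5 (chr19:10738925-10739224, minus strand) and 79 bases before it in Il18rap (chr1:40515112-40515411, plus strand).

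All 55 receptor genes had a higher mean FPKM (fragments scaled to exon length and to the library total) in DSS than in Control, and Selenbp1 a lower one. The deposited list is partial. Every listed feature with a higher DSS mean is higher by at least 2.15-fold, so a selection on this contrast is likely. The direction of a listed gene is then no independent evidence, and p-values were adjusted over what is listed alone. The ratio of means had a median of 2.75-fold over the receptor genes, with 36 of 55 between 2 and 3-fold, beside a median of 2.88-fold over all 731 listed features with a higher DSS mean. The 3 DSS libraries did not overlap the 3 Control libraries in 53 of the 56 genes, against 95.2% of all listed features, a like share. The exceptions were Cd80, Ccr7 and Itgb8, in each of which DSS replicate 3 did not exceed Control replicate 2.

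Of the 56 genes, 37 reached 1 FPKM in 3 libraries and were tested with limma on log2(FPKM + 1), a scale that understates the change of low genes. Past the threshold of an adjusted p of 0.05 were 36 higher and 1 lower, where 79.2% of all tested features were called higher and 20.0% lower. A gene that reached 1 FPKM in DSS alone had to differ, which holds for 6 of the 37, among them Tnfrsf23, Il27ra, Cd200r4, Cd300lf and Lilra5. The calls of these 6 support nothing. Only 20 of the 37 reached 1 FPKM in every Control library. The others needed DSS libraries to pass the filter, so their calls lean on it too. With no low-value filter all 55 receptor genes were called higher, where 77.6% of all features were. The median log2 change of the tested members was 0.98, beside 0.96 over all tested features, which include a larger share of falls. Among those called higher it was 0.99 for members and 1.05 for all features. Without the 2 libraries of conflicting description 33 receptor genes were called higher, with Cd180, Cxcr6 and Cd200r2 not passing, and Selenbp1 still called lower. Subtracting from each library its median over the list, which holds mostly rises, took 0.65 off all log2 changes. It left 7 receptor genes called higher (Clec2e, Clec4a1, Clec7a, Cd93, Tnfrsf11b, Tnfrsf8 and Ccr1; 18.6% of all tested features) and Selenbp1 called lower (20.5%), with no member changing sign.

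**Figure D1:**
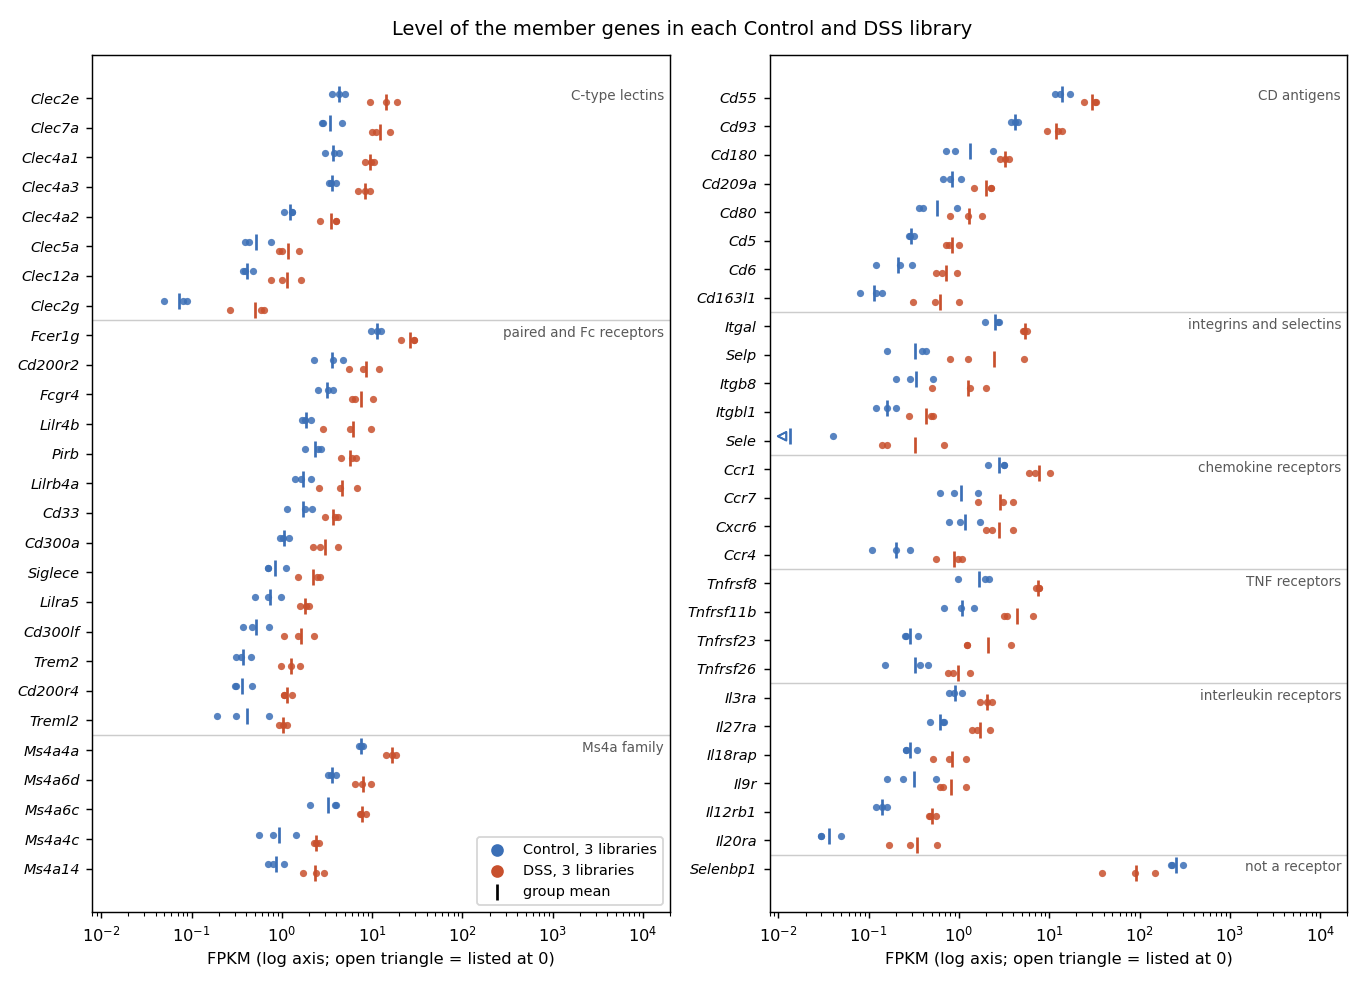
FPKM of 55 of the 56 genes on a log axis, grouped by family and sorted by DSS mean, with 1 point per library (blue Control, red DSS), upright bars for group means, and open triangles for libraries listed at 0 (2 Control libraries of Sele, drawn over each other). The red points lie to the right of the blue ones in every row except Selenbp1, with an overlap in Cd80, Ccr7 and Itgb8.

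Library totals, recovered from the spacing of low FPKM values of short genes, were 14400000 to 19200000 fragments. At that depth 24 of the 56 genes had at least 50 fragments in every Control library and 9 had fewer than 10 in at least 1. Levels were low: 18 genes, Selenbp1 among them, had a DSS mean of at least 5 FPKM, and 12 a DSS mean below 1 FPKM. Defining markers of the tissue and its cells were listed only in part. T cells had 6 of 10 markers listed (Trac and Foxp3 among them), macrophages 4 of 12, neutrophils 5 of 12, fibroblasts 6 of 8, epithelium 2 of 9 (Car4 and Slc26a3), and B cells, NK cells, eosinophils, platelets and smooth muscle none.

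The 5 tested C-type lectins were called higher, where 79.2% of all tested features were. Clec7a encodes Dectin-1, the beta-glucan receptor of macrophages, neutrophils and dendritic cells, which signals through its own tyrosine motif. Clec7a stood at 2.77, 4.62 and 2.85 FPKM in Control and at 15.7, 9.94 and 11.1 FPKM in DSS. The lowest DSS library had more than any Control library, and DSS replicate 1 was highest. The log2 change was 1.59 (SE 0.28, limma adjusted p = 0.00326). Release M21 of GENCODE classes Clec7a as a polymorphic pseudogene, and the other 55 genes as protein-coding. Clec2e, of the Clec2 family of ligands for NK cell lectin receptors, stood at 4.34, 4.95 and 3.55 FPKM in Control and 9.43, 18.8 and 14.2 FPKM in DSS. Its libraries did not overlap and DSS replicate 2 was highest, the reverse of Clec7a (log2 change 1.48, SE 0.29, limma adjusted p = 0.00383). The related Clec2g was low, at 0.0733 ± 0.0208 and 0.50 ± 0.201 FPKM (mean ± SD, n = 3 per group, as throughout), the Control values resting on 2.0 to 4.2 fragments.

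The ratios of the other 5 lectins lay between 2.21 and 2.88, and the 3 tested ones rose. Clec4a1 stood at 3.72 ± 0.649 FPKM in Control and 9.52 ± 1.002 FPKM in DSS, Clec4a3 at 3.60 ± 0.346 and 8.27 ± 1.24 FPKM, and Clec4a2, the ITIM-bearing DCIR of dendritic cells, at 1.22 ± 0.133 and 3.53 ± 0.734 FPKM. These 3 neighbours on chromosome 6 are close in sequence, and the treatment of reads shared by such copies was not found in the labels, so their split is uncertain. Clec5a, a myeloid activating lectin that pairs with the adaptor DAP12, stood at 0.523 ± 0.197 and 1.16 ± 0.326 FPKM. Clec12a, an ITIM lectin that senses dead cells, stood at 0.413 ± 0.0586 and 1.13 ± 0.455 FPKM. Clec5a and Clec12a were below the low-value filter, and neither overlapped between groups.

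Among the 14 Fc and paired receptors, Fcer1g had by far the highest level. It encodes the common gamma chain, the ITAM adaptor shared by Fc receptors and several lectins and paired receptors. Fcer1g stood at 11.3, 9.62 and 12.6 FPKM in Control and 28.8, 28.9 and 20.7 FPKM in DSS. All DSS libraries were higher than all Control libraries, with DSS replicate 3 lowest (log2 change 1.15, SE 0.28, limma adjusted p = 0.00566). Fcgr4, a receptor for IgG2 antibodies that needs the gamma chain, had a like ratio, at 3.13 ± 0.588 and 7.54 ± 2.30 FPKM. The ratio of means was 2.34 for Fcer1g and 2.41 for Fcgr4, which lie within 215 kb on chromosome 1. Trem2 and Treml2 were below the filter. Trem2, a lipid-sensing receptor of macrophages that signals through DAP12, stood at 0.370 ± 0.0721 and 1.27 ± 0.316 FPKM, and Treml2 at 0.407 ± 0.278 and 1.03 ± 0.105 FPKM.

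The 12 tested genes of this family were all called higher, where 79.2% of all tested features were. Of the 12, 3 (Cd200r4, Cd300lf and Lilra5) were tested through DSS alone. Pirb, which binds MHC class I, stood at 2.35 ± 0.471 FPKM in Control and 5.73 ± 1.12 FPKM in DSS. Lilrb4a, an ITIM receptor of mast and myeloid cells, stood at 1.64, 2.12 and 1.41 FPKM in Control and 4.38, 6.86 and 2.59 FPKM in DSS. Its neighbour Lilr4b, once named gp49A and without ITIMs, stood at 1.81, 2.12 and 1.67 FPKM in Control and 5.62, 9.78 and 2.88 FPKM in DSS. Both followed 1 order over the DSS libraries, highest in replicate 2 and lowest in replicate 3, and no DSS library fell into the Control range. For Lilr4b the log2 change was 1.19, with SE 0.34 and limma adjusted p = 0.00954. The 2 genes span 16 kb on chromosome 10 from 51480632 to 51496611 and are near-identical copies, so their split is uncertain.

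Cd300a, an ITIM receptor for phospholipids of dying cells, stood at 1.06 ± 0.117 and 3.01 ± 1.02 FPKM, and Cd300lf at 0.520 ± 0.180 and 1.62 ± 0.622 FPKM. The sialic acid receptors Siglece (0.837 ± 0.228 and 2.22 ± 0.612 FPKM) and Cd33 (1.71 ± 0.534 and 3.69 ± 0.601 FPKM) had ratios of 2.65 and 2.16, the latter the lowest of the 14. Lilra5 stood at 0.733 ± 0.246 and 1.82 ± 0.228 FPKM. Set side by side, 7 receptors known to carry ITIMs (Cd300a, Cd300lf, Pirb, Lilrb4a, Siglece, Clec12a and Clec4a2) had a median ratio of 2.74-fold. The 6 genes of activating receptors or their adaptor (Clec7a, Clec5a, Fcgr4, Fcer1g, Trem2 and Cd200r4) had a median ratio of 2.79-fold. The ranges, 2.44 to 3.12-fold and 2.21 to 3.59-fold, overlap. These sets were drawn from background knowledge after the values were seen, and their difference was not tested. Left in neither set were Cd200r2, Lilra5, Lilr4b, Cd33 and Treml2 of this family, with ratios of 2.37, 2.48, 3.26, 2.16 and 2.52. The medians depend on which genes each set holds.

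Cd200r2 and Cd200r4 belong to the receptors related to the CD200 receptor, found on mast cells and other myeloid cells. Cd200r2 stood at 2.26, 4.80 and 3.66 FPKM in Control and 12.0, 5.50 and 7.90 FPKM in DSS. The groups did not overlap, but the lowest DSS library was close to the highest Control library, and the spread over DSS was wide. Its log2 change was 1.03 (SE 0.33, limma adjusted p = 0.0136). The call was lost without Control replicate 1 (log2 change 0.81, limma adjusted p = 0.0527) and without the 2 libraries of conflicting description (1.08, limma adjusted p = 0.0623). Cd200r4 stood at 0.360 ± 0.0954 and 1.14 ± 0.136 FPKM, with little spread over DSS. Mast cell markers Cpa3 and Mcpt4, the 2 of 7 that were listed, summed to 0.79 to 1.25 FPKM in Control. In DSS they summed to 2.63 to 3.38 FPKM, highest in replicate 1 like Cd200r2 and Cd200r4. The listed macrophage, T cell and plasma cell markers were highest in that library too, but not the neutrophil and fibroblast markers. Il3ra and Lilrb4a, also expressed by mast cells, were highest in replicate 2. The part of mast cells in these values was not tested.

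Of 39 genes of ITAM and ITIM signalling, 7 were listed and 6 were tested. All 6 were called higher, where 79.2% of all tested features were. The median log2 change of the 6 was 0.93, beside 1.05 over all features called higher. Dok2 was tested through DSS alone. Sla, an adaptor that dampens receptor signalling, rose from 1.28 ± 0.261 to 3.38 ± 0.364 FPKM (limma adjusted p = 0.00356). Lcp2, the adaptor SLP-76, rose from 2.05 ± 0.442 to 4.97 ± 0.571 FPKM, and the adaptor Dok2 stood at 0.407 ± 0.0153 and 1.17 ± 0.139 FPKM.

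**Figure D2:**
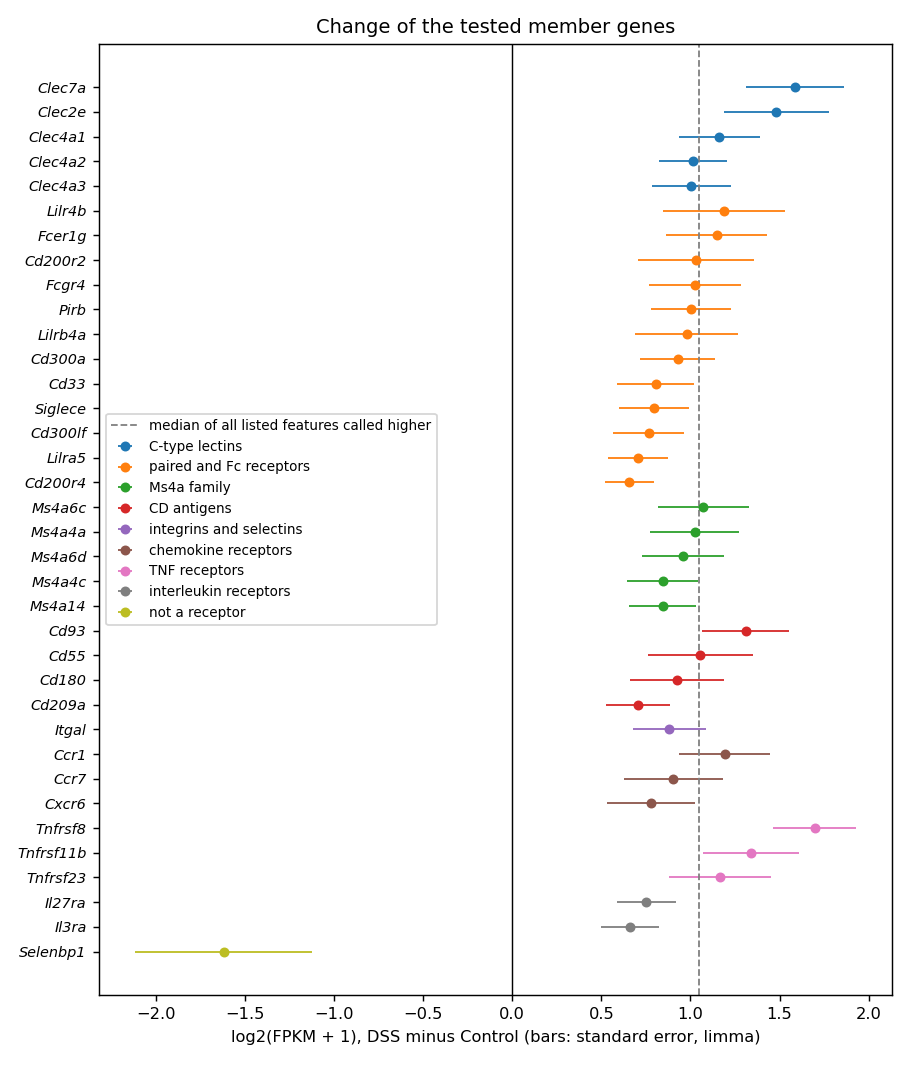
Change of log2(FPKM + 1) from Control to DSS for 36 of the 37 tested genes, with bars of 1 standard error from limma, coloured by family. The dashed line at 1.05 is the median of all features called higher. Of 36 receptor genes, 1 of them not drawn, 19 lie within 1 standard error of it, 5 farther above and 12 farther below. Tnfrsf8 and Clec7a lie farthest to the right. The scale understates low genes: Cd200r4 and Cd300lf lie farther below with ratios of means of 3.18 and 3.12.

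All 5 Ms4a genes, which encode tetraspan membrane proteins of myeloid cells, rose by 2.18 to 2.76-fold. All 5 were tested and called higher, where 79.2% of all tested features were called higher. They lie with Cd5 and Cd6 in 887.7 kb of chromosome 19, from 10717116 to 11604849, the largest run of neighbouring members. Ms4a4a, a marker of resident macrophages, stood at 7.07, 7.54 and 7.96 FPKM in Control and 16.5, 18.5 and 14.2 FPKM in DSS. The libraries within each group were close and the groups far apart (log2 change 1.02, SE 0.25, limma adjusted p = 0.00538). Ms4a6d stood at 3.49, 3.98 and 3.23 FPKM in Control and 7.81, 9.67 and 6.38 FPKM in DSS, also without overlap (log2 change 0.96, SE 0.23, limma adjusted p = 0.00537). Ms4a6c (3.27 ± 1.07 and 7.79 ± 0.626 FPKM), Ms4a4c (0.930 ± 0.456 and 2.41 ± 0.150 FPKM) and Ms4a14 (0.853 ± 0.186 and 2.35 ± 0.597 FPKM) were lower in level. DSS replicate 3 was lowest in all 5 genes. In all, 35 of the 56 genes lie within 1 megabase of another member, in 13 clusters.

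The remaining CD antigens span several cell types. Cd55, decay-accelerating factor, protects cells from complement and is carried by epithelium and leukocytes alike. Cd55 stood at 11.6, 17.0 and 13.0 FPKM in Control and 32.0, 33.2 and 24.4 FPKM in DSS, the highest DSS level of any receptor gene. No DSS library fell into the Control range (log2 change 1.06, SE 0.30, limma adjusted p = 0.00853), although its 2.15-fold ratio was the smallest of the 55. Cd93, a C-type lectin-like protein of endothelium and myeloid cells, stood at 4.13, 4.56 and 3.80 FPKM in Control and 12.6, 13.7 and 9.39 FPKM in DSS. Control libraries were tight and DSS libraries all more than any of them (log2 change 1.31, SE 0.24, limma adjusted p = 0.00355).

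Cd180, a Toll-like receptor homologue of B cells and myeloid cells, stood at 0.91, 2.37 and 0.71 FPKM in Control and 3.24, 2.87 and 3.60 FPKM in DSS. Control replicate 2 stood well above the other Control libraries, and without it the ratio of means was 4.00 in place of 2.43. Treml2 (4.11 in place of 2.52) and Il9r (4.10 in place of 2.59) changed in the same way without that library. Cd209a, a DC-SIGN homologue of dendritic cells, stood at 0.837 ± 0.204 and 2.00 ± 0.453 FPKM. Cd80, the ligand of CD28 and CTLA-4, stood at 0.36, 0.94 and 0.40 FPKM in Control and 1.26, 1.79 and 0.80 FPKM in DSS, so that DSS replicate 3 lay below Control replicate 2. The T cell scavenger receptors Cd5 (0.297 ± 0.0208 and 0.837 ± 0.153 FPKM) and Cd6 (0.213 ± 0.0902 and 0.720 ± 0.214 FPKM) and Cd163l1, a scavenger receptor of gamma delta T cells (0.113 ± 0.0306 and 0.620 ± 0.357 FPKM), were all below the low-value filter.

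Among integrins and selectins, 1 gene was tested and rose. Itgal, the alpha chain of LFA-1 on leukocytes, stood at 2.71, 2.78 and 1.94 FPKM in Control and 5.10, 5.72 and 5.30 FPKM in DSS. The DSS libraries were nearly equal and all higher than Control (log2 change 0.88, SE 0.20, limma adjusted p = 0.00496). Selp, P-selectin of activated endothelium and platelets, stood at 0.43, 0.16 and 0.39 FPKM in Control and 1.25, 5.23 and 0.80 FPKM in DSS. DSS replicate 2 was far above the other DSS libraries, and the ratio of means fell from 7.43 to 3.14 without it. Sele, E-selectin of inflamed endothelium, was listed at 0, 0.04 and 0 FPKM in Control, about 1.9 fragments in all, and at 0.16, 0.68 and 0.14 FPKM in DSS, about 7.2, 32.9 and 7.8 fragments. The same library was highest, and with so few Control fragments no ratio is given for Sele.

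Selp and Sele were below the low-value filter, so neither is called, and they lie within 101.8 kb on chromosome 1, from 164048234 to 164150026. Itgb8, the integrin chain that helps to activate latent TGF-beta, stood at 0.29, 0.52 and 0.20 FPKM in Control and 1.33, 1.97 and 0.50 FPKM in DSS, with DSS replicate 3 inside the Control range. Itgbl1 stood at 0.160 ± 0.0400 and 0.427 ± 0.127 FPKM. Of 41 genes for adhesion ligands and matrix proteins that integrins bind, 11 were listed, 10 tested and all 10 called higher, where 79.2% of all tested features were. The median log2 change of the 10 was 1.30, beside 1.05 over all features called higher. That scale understates low genes, and several of the 10 are high in level. Their ratios of means ran from 2.17 to 3.90-fold, around the median of 2.88-fold over all listed features with a higher DSS mean. Among the 10 were Vcam1, the endothelial ligand of alpha 4 integrins (3.35 ± 0.541 to 11.5 ± 2.19 FPKM), the laminin chain gene Lama3 (7.84 ± 0.864 to 24.2 ± 8.52 FPKM) and Col1a1 (17.0 ± 2.23 to 66.5 ± 35.7 FPKM). Vcam1 was highest in DSS replicate 1, with 13.9 FPKM, and not in replicate 2, with 11.2 FPKM, unlike the selectins. Cldn5, the 1 of 8 endothelial markers that was listed, stood at 1.67 to 2.84 FPKM in Control and at 7.24, 3.69 and 4.35 FPKM in DSS, also highest in replicate 1. Its part in the selectin values was not tested.

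The 4 tested chemokine receptors were called higher, where 79.2% of all tested features were, and 1 of the 4 was tested through DSS alone. Ccr1, a receptor of monocytes and neutrophils for CCL3 and CCL5, stood at 3.12, 3.14 and 2.07 FPKM in Control and 7.03, 10.1 and 5.99 FPKM in DSS. The groups did not overlap and DSS replicate 2 was highest (log2 change 1.19, SE 0.26, limma adjusted p = 0.00432). Ccr7, which guides T cells and dendritic cells into lymphoid tissue, stood at 0.88, 1.64 and 0.62 FPKM in Control and 3.94, 3.04 and 1.64 FPKM in DSS. DSS replicate 3 equalled Control replicate 2, and DSS replicate 1 was highest (log2 change 0.90, SE 0.28, limma adjusted p = 0.0117).

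Cxcr6, of tissue-resident T cells and innate lymphoid cells, stood at 1.69, 0.78 and 1.02 FPKM in Control and 3.96, 1.99 and 2.30 FPKM in DSS, with replicate 1 highest in both groups. Its call was lost without Control replicate 2. Ccr4, of Th2 and regulatory T cells, stood at 0.20 ± 0.0900 and 0.873 ± 0.278 FPKM and was below the filter. Of 44 genes of chemokine ligands and other chemokine receptors, 8 were listed and 6 were tested. All 6 were called higher, where 79.2% of all tested features were. The median log2 change of the 6 was 1.20, beside 1.05 over all features called higher. Of the 6, 3 (Ccl2, Cxcl1 and Cxcl5) were tested through DSS alone. Ccl22, the ligand of CCR4, rose from 0.727 ± 0.372 to 2.68 ± 0.462 FPKM (log2 change 1.11, limma adjusted p = 0.00346). Ccl3, a ligand of CCR1, was listed below the filter at 0.280 ± 0.174 and 2.32 ± 2.42 FPKM. The log2 changes of the neutrophil attractants Cxcl1 and Cxcl5 were 1.42 and 2.55.

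The 3 tested TNF receptors were called higher, where 79.2% of all tested features were. Tnfrsf8 encodes CD30, a receptor of activated T and B cells. Tnfrsf8 stood at 2.13, 0.97 and 1.96 FPKM in Control and 7.18, 7.79 and 7.63 FPKM in DSS. The DSS libraries lay within 1.08-fold of each other and the ratio of means was 4.47. The log2 change reached 1.70 (SE 0.23, limma adjusted p = 0.00169). Its ligand gene Tnfsf8 was listed below the filter, at 0.330 ± 0.144 and 0.827 ± 0.185 FPKM.

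Of the other 3 TNF receptor genes, Tnfrsf11b and Tnfrsf23 encode decoys, which bind a ligand without passing on its signal. Tnfrsf11b, osteoprotegerin, a secreted decoy for RANKL, stood at 1.06, 1.47 and 0.68 FPKM in Control and 3.38, 6.59 and 3.17 FPKM in DSS (log2 change 1.34, SE 0.27, limma adjusted p = 0.00397). Tnfrsf23, a mouse decoy receptor for TRAIL, stood at 0.25, 0.35 and 0.26 FPKM in Control and 1.23, 3.81 and 1.24 FPKM in DSS (log2 change 1.17, SE 0.28, limma adjusted p = 0.00546, but tested through its DSS libraries alone). In both, no DSS library reached down to Control and replicate 2 was highest by far; without it the ratio of means for Tnfrsf23 was 4.31 in place of 7.30. Tnfrsf26, its neighbour on chromosome 7, stood at 0.323 ± 0.155 and 0.973 ± 0.297 FPKM. Tnfsf11, the gene of RANKL, stood at 0.547 ± 0.307 and 1.49 ± 0.787 FPKM, below the filter. Of 34 genes of TNF ligands and adaptors, 4 were listed, and both tested ones were called higher, where 79.2% of all tested features were: Tnf (log2 change 1.10, limma adjusted p = 0.00356) and the lymphotoxin gene Ltb (0.99, limma adjusted p = 0.00864).

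The 6 interleukin receptor genes were low, and 2 were tested. Il3ra, the alpha chain of the interleukin 3 receptor of mast cells, basophils and dendritic cells, stood at 0.77, 0.89 and 1.08 FPKM in Control and 2.06, 2.33 and 1.71 FPKM in DSS (log2 change 0.66, SE 0.16, limma adjusted p = 0.00564). Il27ra, which restrains T cell responses, stood at 0.68, 0.67 and 0.48 FPKM in Control and 2.19, 1.39 and 1.60 FPKM in DSS (log2 change 0.75, SE 0.17, limma adjusted p = 0.00461, but tested through its DSS libraries alone). Neither overlapped between groups, and DSS replicate 2 was highest in Il3ra and lowest in Il27ra. The beta chains that pair with Il3ra were listed too: Csf2rb2 rose from 1.52 ± 0.280 to 4.09 ± 1.18 FPKM (log2 change 0.99) and Csf2rb from 1.85 ± 0.286 to 4.70 ± 1.49 FPKM (0.97).

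Below the filter stood Il12rb1, shared by the interleukin 12 and 23 receptors (0.140 ± 0.0200 and 0.497 ± 0.0473 FPKM), Il18rap (0.287 ± 0.0462 and 0.830 ± 0.344 FPKM) and Il9r (0.317 ± 0.206 and 0.820 ± 0.321 FPKM). Il20ra, an epithelial receptor chain for interleukins 19, 20 and 24, was listed at 0.03, 0.05 and 0.03 FPKM in Control, about 1.0 to 2.0 fragments a library, and at 0.29, 0.57 and 0.17 FPKM in DSS, about 10.9, 23.0 and 7.9 fragments. Of 62 genes of interleukin ligands, other cytokine receptors and JAK-STAT signalling, 9 were listed and 7 tested. All 7 were called higher, where 79.2% of all tested features were. The median log2 change of the 7 was 0.99, beside 1.05 over all features called higher. Of the 7, Il1b and Csf3r were tested through DSS alone. Besides Csf2rb2 the 7 include Irak3, an inhibitor of interleukin 1 receptor signalling (1.62 ± 0.225 to 3.65 ± 0.307 FPKM), and Csf3r (0.657 ± 0.0115 and 4.34 ± 3.18 FPKM).

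The receptor genes differed in which DSS library was highest. DSS replicate 2 was highest in 33 of the 55 genes, replicate 1 in 21 and replicate 3 in 1 (Cd180); over the other 676 listed features with a higher DSS mean these counts were 420, 196 and 60. DSS replicate 3, whose description names the lower BXD dose, was lowest in 38 of the 55 genes and in 400 of those 676 features. In Control, replicate 2 was highest in 40 of the 55 genes and in 362 of those 676 features. Grouped by the cell type a gene is best known from, a grouping made after the values were seen, 8 of 12 genes of T and NK cells were highest in DSS replicate 1. Replicate 2 was highest in 8 of 9 genes of epithelium and stroma, with Clec2g the exception. It was also highest in all 3 endothelial genes (Selp, Sele and Cd93) and in 18 of 31 genes of myeloid, mast and B cells. Cd93 is a gene of myeloid cells too, and the listed endothelial marker Cldn5 was highest in replicate 1.

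**Figure D3:**
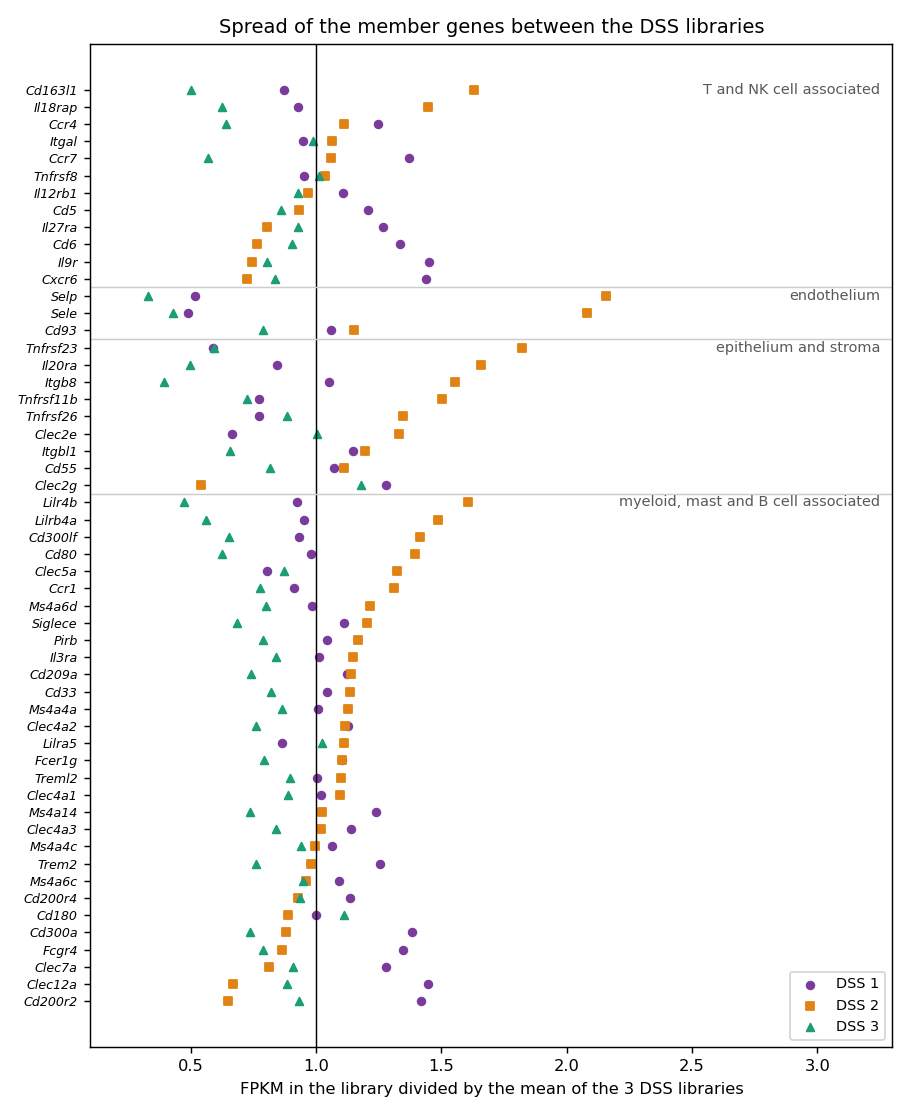
FPKM of 54 of the 55 receptor genes in the 3 DSS libraries divided by their mean, with genes grouped by the cell type they are best known from and sorted by replicate 2. Orange squares (replicate 2) lie farthest right for Selp, Sele, Tnfrsf23 and Il20ra, and purple circles (replicate 1) for Cxcr6, Il9r, Cd200r2 and Clec12a.

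Marker lists differed in which DSS library was highest. The summed FPKM of the 6 listed T cell markers was 7.21 to 12.7 in Control and 32.0, 22.8 and 22.9 in DSS replicates 1 to 3, highest in replicate 1. That of the 5 listed neutrophil markers was 1.54 to 1.77 in Control and 13.3, 47.1 and 7.39 in DSS, highest in replicate 2. The 6 fibroblast markers summed to 124 to 147 in Control and 334, 639 and 343 in DSS, and the 4 macrophage markers to 25.1 to 34.3 in Control and 86.2, 64.9 and 63.9 in DSS. The 2 listed epithelial markers fell to 320, 109 and 457 from 742 to 1086. Their part in the differences between receptor genes was not tested.

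**Figure D4:**
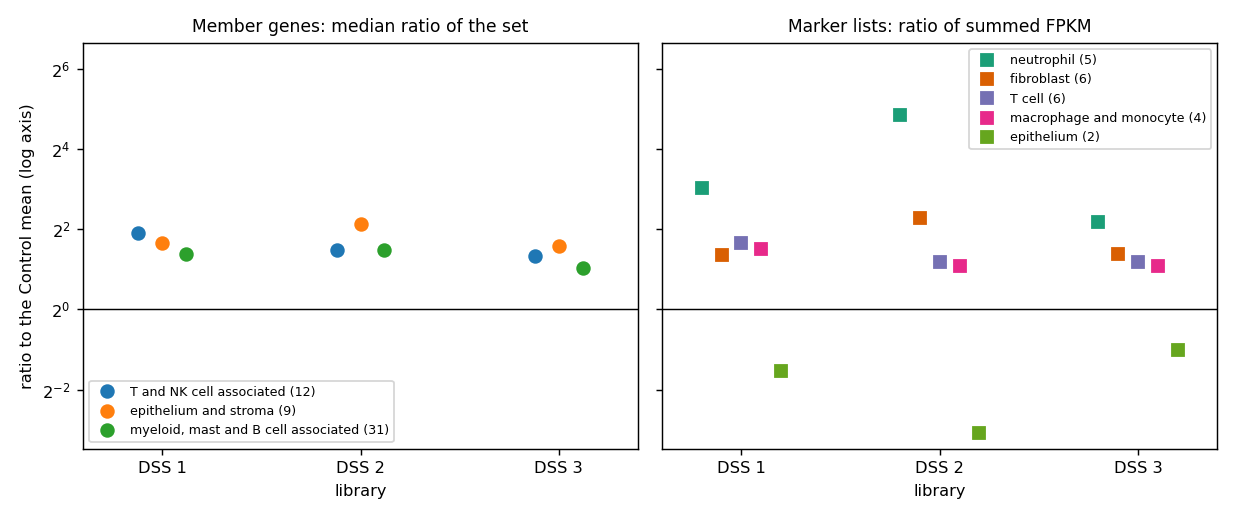
Ratio of each DSS library to the Control mean on a log axis, as the median over the member genes of 3 sets (left) and as summed FPKM of marker lists (right), with the number of genes in brackets. The set of T and NK cell genes is highest in DSS replicate 1 (3.76) and that of epithelium and stroma in replicate 2 (4.40), where neutrophil and fibroblast markers are highest and epithelial markers lowest.

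Selenbp1, the gene taken in by its symbol alone, fell. Selenbp1 stood at 226, 223 and 299.7 FPKM in Control and 88.9, 38.3 and 148 FPKM in DSS (log2 change −1.62, SE 0.49, limma adjusted p = 0.0119). No DSS library reached the Control range, and the order over the DSS libraries, lowest in replicate 2 and highest in replicate 3, was that of the epithelial markers Car4 and Slc26a3 in sum. At 249.7 ± 43.4 FPKM in Control its level was above that of every receptor gene.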

How the data were processed

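RNA of mouse colon was extracted with TRIzol and made into libraries with a NEBNext Ultra kit, per the labels' protocols. The authors deposited FPKM values, 1 column per library, per the file headers, for partial lists of features. The submitters' processing notes name bcl2fastq, FastQC, fastp and build mm10. The aligner, counter, use of strand and rule of selection are unnamed (not given in the sources used here). FPKM corrects for gene length and library total, not for composition.

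Identifiers were matched to GENCODE M21 (981 of 991 features). Library totals were the values at which FPKM times exon length gave whole fragments for most genes under 1200 bases (77.5 to 94.1% of 118 to 120 genes in Control and DSS). They assume that exon length; no library total was found for BXD_L. No pair of libraries in a group shared more than 25 equal values.

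Features with at least 1 FPKM in 3 of 12 libraries were tested as log2(FPKM + 1) with limma 3.58.1 (R 4.3.3), with 1 mean per group over all 12 libraries and a trended spread. Two-sided p-values were adjusted by the Benjamini-Hochberg method over 576 features. The script was tested on simulated data. Alternatives changed the pseudocount, filter, scaling, libraries, prior and grouping.

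The member rule and the lists were chosen with earlier results of these data known. Library values were given by rule for the 8 largest rises and falls without overlap and a higher mean of at least 2 FPKM, and for the 2 highest members of each family. Other members with library values were chosen after their values were seen. Partner genes were the 3 with the smallest adjusted p of each list; Ccl3, Tnfsf8, Tnfsf11 and Csf2rb were added as ligands or partners of members after their values were seen. No protein sequences were used. Values of 1 member, counted in all totals, are not reported here.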

Additional observations from a re-analysis of the deposited data

Results flagged for a closer look

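Of genes whose symbols fit the rule, 2 appeared only in the BXD_H libraries, which no comparison here uses, with levels above what 3 fragments would give (at most 0.0828 FPKM). Cd244a, a receptor of NK and myeloid cells, stood at 1.48, 1.18 and 2.64 FPKM there (mean 1.77 FPKM). Cd300lb, an activating member of the CD300 family, stood at 1.27, 1.64 and 2.51 FPKM (mean 1.81 FPKM). Both were highest in BXD_H replicate 3. No Control or DSS value was used, so neither level is compared with another group.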

How the results depend on the processing

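Pseudocounts of 0.1 and 0.5, a fit of Control and DSS alone and a constant prior spread left all 36 higher and 1 lower member past the threshold. Leaving out 1 library gave 35 to 36 higher members and 1 lower, with Cd200r2 lost without Control replicate 1 and Cxcr6 lost without Control replicate 2. No log2 change of a called member moved by over 1.5 times when 1 library was left out. Deviations of same-numbered libraries correlated at −0.0531, −0.00259 and 0.0661 over 912 features. These values show no sign that the replicate numbers pair the libraries, but 3 libraries per group cannot exclude it. With the replicate number as a block 570 features, 36 higher members and 1 lower member passed, beside 571, 36 and 1 without it. With no low-value filter 877 features and 55 higher members passed, and with a mean of at least 2 FPKM 23 higher members, since 13 called members were not tested. Centring left 225 features and 7 higher members, a shift built into a list of mostly rises. With groups taken from the description text limma called 8 features, 0 members higher and 0 lower, and 0 of 37 members had an unadjusted p under 0.05. That grouping put Control replicate 3 with DSS and DSS replicate 3 with BXD_L. The list was likely selected on the contrast by title, so this count cannot decide between the groupings. The cause of the lost calls was not tested. Comparisons with BXD_L and BXD_H gave no value, since they list no member. Members below 10 fragments in a Control library are limited by depth, and fragment numbers cover counting error only.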

Other observations

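Clec2i, another gene of the Clec2 family whose symbol fits the rule, appeared only in the BXD_L libraries, at 1.18, 1.12 and 1.05 FPKM. Those libraries list 8 features and gave no library total, so the number of fragments behind these values is not known.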
